A study of Caenorhabditis elegans with 2 samples.

Results

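Replication licensing loads the replicative helicase onto DNA before S phase. The genes described here encode 10 proteins of that step in Caenorhabditis elegans: the helicase subunits mcm-2, mcm-3, mcm-4, mcm-5, mcm-6 and mcm-7, the origin recognition complex genes orc-1 and orc-2, and the loading factors cdc-6 and cdt-1. They were chosen by symbol from the 19973 protein-coding genes of the Ensembl annotation of WBcel235 (the assembly that UCSC calls ce11). Marked genes are those with a summit of a final peak no more than 500 bp to either side of the annotated 5′ end. Peaks came from chromatin immunoprecipitation sequencing (ChIP-seq) of SNU-23 tagged with eGFP, precipitated with an antibody against GFP. SNU-23 is a zinc finger protein named after its orthologue in the yeast tri-snRNP, a building block of the spliceosome. The study has 1 group with 2 biological replicates. Both were whole hermaphrodite L1 larvae of strain OP528, taken 6 hours after synchronisation, where synchronisation was by starvation after bleaching. The labels do not say whether the larvae were fed in those hours. In this strain the transgene wgIs528 supplies snu-23::TY1 EGFP 3xFLAG together with unc-119(+), in animals with the unc-119 (tm4063) allele. The tagged protein is therefore read from a transgene, and the labels name no change at the endogenous snu-23 gene. With 1 group there is no contrast between conditions, and no test between groups was made.

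In eukaryotes the origin recognition complex binds DNA and, with CDC-6, recruits CDT-1 and the ring of MCM-2 to MCM-7. The loaded ring is later switched on as the helicase that opens the double strand ahead of the polymerases. Once S phase begins, reloading is blocked, in worms among others by CUL-4-dependent destruction of CDT-1. In many animals E2F with its DP partner controls transcription of licensing genes, together with other cell cycle genes. In worms the annotated 5′ end of a gene is often the trans-splice site of a spliced leader, so transcription can begin upstream of it.

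The final list held 6675 peaks, the strongest 6675 of 30000 candidates called on the pooled replicates. Each replicate also has a list of 30000 candidates. The signal given here is the authors' own enrichment value per peak over their control, and it has no unit. Read depth is unknown from these files, and signal scales differ between lists. Over the 6593 final peaks matched in both replicates the log2 ratio of replicate 2 to replicate 1 had a median of 0.21 (SD 0.39). At snu-23 itself the final list held a peak of signal 119.2 at -71 bp from the 5′ end. No candidate of any list lay within 500 bp of the 5′ end of unc-119, the marker carried by the transgene. The larvae were profiled whole, so binding in fewer cells and weaker binding per cell cannot be told apart, and no expression values were at hand to check tissues.

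SNU-23-eGFP peaks lay at the 5′ ends of 9 of the 10 licensing genes, all but orc-2. By the same rule 16.8% of all coding genes were marked. All 9 summits lay upstream of the annotated 5′ end and inside no annotated gene, with a single final summit at each gene. Among marked coding genes 3023 of 3355 had the summit upstream. How many of them had the summit outside any gene, or a single final summit, was not counted. The signal at the 9 genes ran from 120.5 to 692 with a median of 212, beside a median of 209.7 over all marked coding genes (quartiles 126 and 355). Of the 9 genes, 5 lay above the median of marked coding genes. Adding summits inside the gene to the rule, with 500 bp upstream, 9 of 10 were marked, beside 20.9% of all coding genes. The strongest 6675 peaks of replicate 1 alone marked 9 of 10, beside 17.1% of all coding genes, and those of replicate 2 alone 9 of 10, beside 17%. Every pooled candidate, however weak, marked 10 of 10, beside 33.0% of all coding genes.

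**Figure D1:**
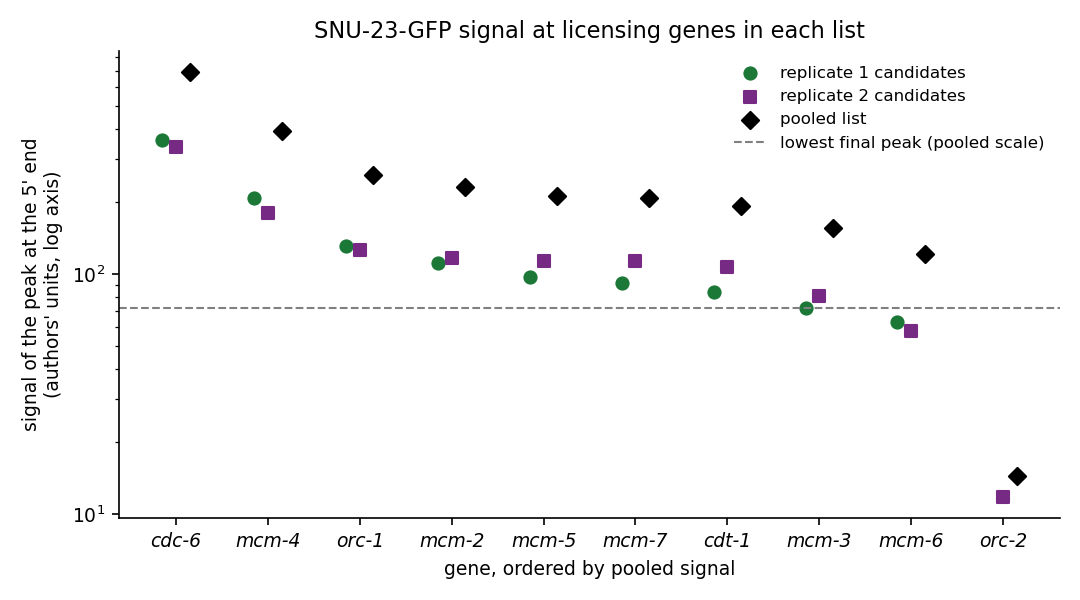
Signal of the peak at each licensing gene (authors' units, log axis) in the candidates of each replicate and in the pooled list, with a dashed line at the lowest final signal on the pooled scale, 71.7. cdc-6 stands highest at 692 in the pooled list, mcm-6 is the lowest marked gene at 120.5, and orc-2 lies below the line with no point for replicate 1.

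The helicase subunit genes were all marked. mcm-4, on the minus strand of chromosome I (2318291-2321817), had the strongest peak of the 6. Its signal was 206 in replicate 1, 179.8 in replicate 2 and 392 in the final list, where it was number 932 by strength. The worm gene is also known as lin-6, from mutants whose postembryonic blast cells fail to replicate DNA. mcm-2, on the minus strand of chromosome II (12001509-12006625), followed with 111 in replicate 1, 116 in replicate 2 and 230.4 in the final list. mcm-5, on the minus strand of chromosome III (4288264-4291266), had 96.9 in replicate 1, 113 in replicate 2 and 212 in the final list. mcm-7, on the plus strand of chromosome V (4347166-4349768), had 91.8 in replicate 1, 113 in replicate 2 and 206 in the final list. These 3 genes therefore lay close together, near the middle of the marked coding genes. mcm-3, on the minus strand of chromosome V (15056719-15059599), had 71.8 in replicate 1, 80.7 in replicate 2 and 155 in the final list. mcm-6, on the plus strand of chromosome III (9794367-9798644), had 62.8 in replicate 1, 57.6 in replicate 2 and 120.5 in the final list. Genes whose proteins form 1 ring thus carried peaks that spread from 120.5 to 392 in the final list, and mcm-6 fell at the percentile 22.5 of marked coding genes against 78.3 for mcm-4.

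Of the loading factor and origin recognition genes, cdc-6 had the strongest peak of the set and orc-2 was the gene left unmarked. cdc-6, on the minus strand of chromosome I (4268070-4270287), encodes the ATPase that joins the origin recognition complex before the helicase is loaded. Its signal was 362 in replicate 1, 337 in replicate 2 and 692 in the final list, number 286 of 6675. Of the 3355 marked coding genes, 223 had a stronger peak. The summit of the cdc-6 peak lay nearer to the 5′ end of the divergent gene acin-1 (90 bp) than to that of cdc-6 (289 bp). cdt-1, on the minus strand of chromosome I (3223160-3228104), encodes the chaperone that brings the helicase to the origin. Its signal was 83.7 in replicate 1, 107 in replicate 2 and 191 in the final list. orc-1, on the plus strand of chromosome III (10643129-10646058), encodes the largest subunit of the origin recognition complex in most animals. Its signal was 131 in replicate 1, 125 in replicate 2 and 258 in the final list. orc-2, on the plus strand of chromosome II (10873931-10877683), was the member without a final peak. It had no candidate in replicate 1, a candidate of signal 11.8 in replicate 2 and a pooled candidate of signal 14.5 at -73 bp from its 5′ end. That candidate was number 19085 of 30000, far below the lowest final signal of 71.7. The nearest final peak lay upstream of its same-strand neighbour copz-1, a coatomer subunit gene, whose 3′ end is separated from orc-2 by 134 bp. That peak had signal 503, between copz-1 and the divergent cyclophilin gene cyn-4.

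The order of the 9 genes by signal was the same in both replicates. The final list had it too, but was called on the pooled replicates and so is not independent of them. From strong to weak the order ran cdc-6, mcm-4, orc-1, mcm-2, mcm-5, mcm-7, cdt-1, mcm-3, mcm-6. Of the 8 pairs of neighbours in this order, 2 differed in both replicates by more than 0.39 on the log2 scale, the SD of the replicate ratio over all matched final peaks. These were cdc-6 above mcm-4, by 0.81 in replicate 1 and 0.91 in replicate 2, and mcm-4 above orc-1, by 0.66 in replicate 1 and 0.52 in replicate 2. From orc-1 downwards neighbours did not differ beyond that spread in both replicates. mcm-5 and mcm-7 differed by 0.08 in replicate 1 and 0.01 in replicate 2. The log2 ratio of replicate 2 to replicate 1 had a median of 0.06 at the 9 genes (SD 0.20), beside 0.16 at all marked coding genes (SD 0.32). It was lowest at mcm-4, at -0.20, and highest at cdt-1, at 0.35, and 8 of the 9 genes lay within 1 SD of the median of all matched final peaks.

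**Figure D2:**
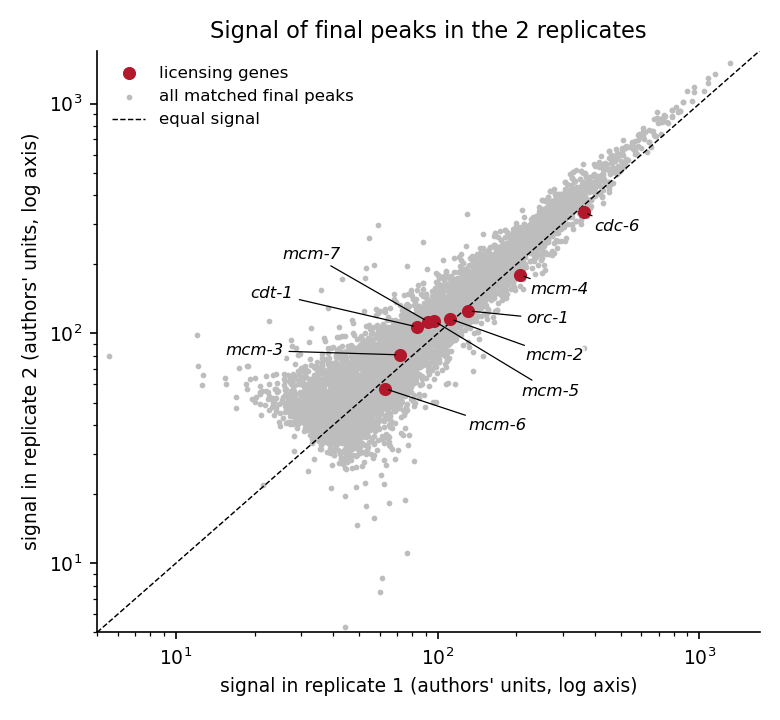
Signal in replicate 2 against replicate 1 (log axes, no unit) for final peaks matched in both replicates, with the 9 marked licensing genes named. The genes lie along the cloud of all final peaks and keep the same order on both axes.

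Offsets of the summit from the annotated 5′ end, negative where upstream, varied from -289 to -11 bp. The offset was -289 bp at cdc-6, -268 bp at mcm-2, -216 bp at mcm-6 and -213 bp at mcm-5. It was -179 bp at mcm-7, -167 bp at mcm-3, -158 bp at mcm-4, -124 bp at orc-1 and -11 bp at cdt-1. The median offset was -179 bp at the licensing genes and -168 bp at all marked coding genes (quartiles -276 and -78 bp). The summit of cdt-1 was the nearest to a 5′ end. Its annotated 5′ UTR is 137 bp long, and its summit lay at -148 bp from the start codon. Measured from the start codon the 9 summits ran from -289 to -129 bp. Summits of the separate replicates stayed within 9 bp of the final summit in replicate 1 and within 16 bp in replicate 2. Peak widths had a median of 232 bp at the licensing genes, 265 bp at marked coding genes and 287 bp over the whole final list. The most frequent width in the pooled list was 396 bp, which was also the upper quartile of the final list. Whether the lower median reflects narrower binding was not tested.

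**Figure D3:**
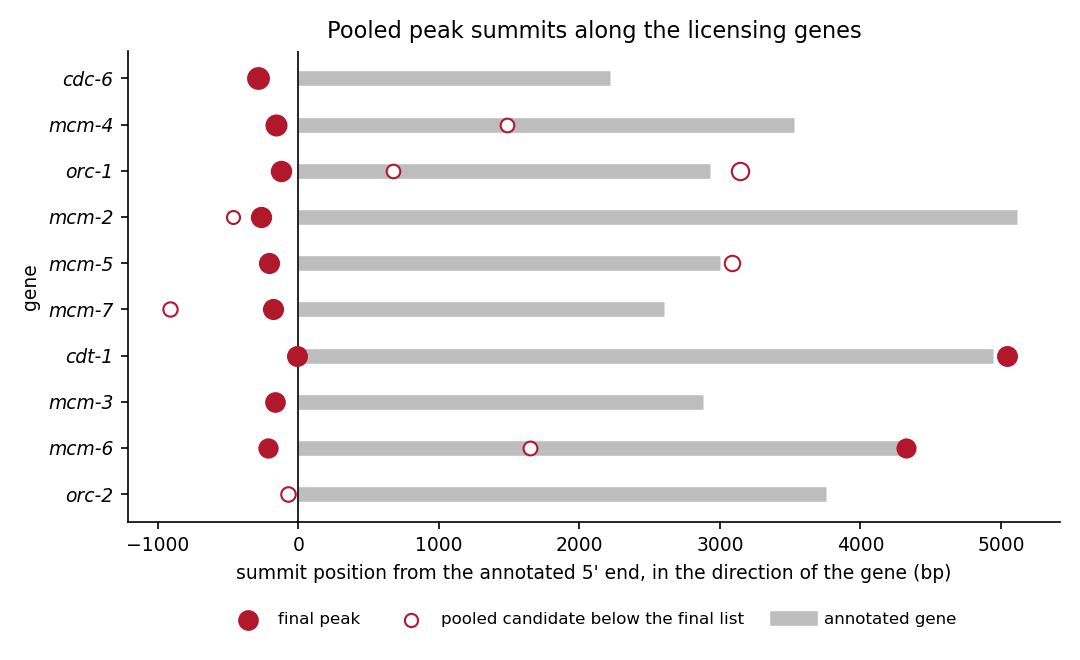
Position of pooled summits from the annotated 5′ end, in the direction of the gene (bp), for final peaks (filled) and weaker candidates (open), with the annotated gene as a bar. Final summits sit at or upstream of the 5′ ends of 9 genes, and cdt-1 and mcm-6 have another just beyond the 3′ end.

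Some of these peaks also belong to a neighbour by the same rule. At 3 of the 9 genes another coding 5′ end lay within 500 bp of the summit, in each case a divergent gene. The share of all marked coding genes with such a neighbour was not counted. The peak of cdc-6 lay 90 bp from the 5′ end of acin-1, which encodes a protein with a SAP domain. The peak of mcm-3 lay 42 bp from the 5′ end of C25D7.15, and that of orc-1 lay 140 bp from the 5′ end of dhs-11, a gene named for a short-chain dehydrogenase. For cdc-6 and mcm-3 the neighbour's 5′ end was the nearer. Beyond those divergent genes, the nearest coding neighbours were glb-29 and Y17G7B.23 at mcm-2, C25D7.16 at mcm-3, Y39G10AR.32 and ekl-7 at mcm-4, nth-1 and R10E4.3 at mcm-5, hpo-18 and F32D1.3 at mcm-7, C43E11.9 at cdc-6, txl-1 at cdt-1 and lurp-1 at orc-2. srxa-10 lies inside mcm-6 on the opposite strand, and orc-4 begins 111 bp past orc-1. Which gene of a divergent pair the binding concerns cannot be told apart from summits. Gene bodies held no final summit. Candidates of the pooled list lay inside mcm-4, mcm-6 and orc-1, with signals of 9.32, 9.91 and 8.91, below the lowest final signal. Beyond the 3′ ends, final summits lay 97 bp past cdt-1 (signal 185) and 45 bp past mcm-6 (signal 109). The summit past cdt-1 lay at -108 bp from the 5′ end of the next gene, rom-5, a rhomboid-family gene, and the summit past mcm-6 at -418 bp from that of ZK632.2.

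The letters under the summits are shown for 6 marked genes and for the weak orc-2 candidate, since the motifs counted later can be seen in them. Each window holds the summit and 100 bases to either side, 5′ to 3′ on the strand of the gene, from the RefSeq sequence of WBcel235. Capitals mark 2 kinds of motif on either strand: E2F-like words (TTTCGCGC, TTTGGCGC, TTTCCCGC, TTTCCGCC, GGCGGGAA or their reverse complements) and the word TTTGAA or its reverse complement TTCAAA, the core of the cell cycle genes homology region (CHR) known from mammalian promoters. The windows were chrII:12006793-12006993 (minus strand) for mcm-2, chrV:15059666-15059866 (minus) for mcm-3, chrIII:4291379-4291579 (minus) for mcm-5, chrIII:9794051-9794251 (plus) for mcm-6, chrV:4346887-4347087 (plus) for mcm-7, chrIII:10642905-10643105 (plus) for orc-1 and chrII:10873758-10873958 (plus) for orc-2.
mcm-2: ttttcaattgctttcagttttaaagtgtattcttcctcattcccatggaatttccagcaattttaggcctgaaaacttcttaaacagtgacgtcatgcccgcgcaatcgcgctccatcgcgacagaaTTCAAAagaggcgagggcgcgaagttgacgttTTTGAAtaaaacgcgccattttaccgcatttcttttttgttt
mcm-3: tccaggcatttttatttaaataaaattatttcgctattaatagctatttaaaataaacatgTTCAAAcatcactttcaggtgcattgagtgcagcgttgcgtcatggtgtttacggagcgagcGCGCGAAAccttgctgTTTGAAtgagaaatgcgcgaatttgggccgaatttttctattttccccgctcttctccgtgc
mcm-5: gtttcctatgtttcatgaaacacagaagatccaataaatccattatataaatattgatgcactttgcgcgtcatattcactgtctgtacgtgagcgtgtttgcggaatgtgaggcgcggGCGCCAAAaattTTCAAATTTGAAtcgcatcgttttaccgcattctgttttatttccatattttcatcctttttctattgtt
mcm-6: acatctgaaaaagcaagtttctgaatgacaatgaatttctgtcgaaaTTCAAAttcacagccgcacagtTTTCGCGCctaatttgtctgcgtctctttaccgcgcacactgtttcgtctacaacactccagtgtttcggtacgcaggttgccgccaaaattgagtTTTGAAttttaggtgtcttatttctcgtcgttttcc
mcm-7: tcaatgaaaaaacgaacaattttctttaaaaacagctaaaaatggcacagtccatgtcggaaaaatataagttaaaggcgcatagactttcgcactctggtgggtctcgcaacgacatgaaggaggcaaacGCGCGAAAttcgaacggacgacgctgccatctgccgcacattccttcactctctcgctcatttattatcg
orc-1: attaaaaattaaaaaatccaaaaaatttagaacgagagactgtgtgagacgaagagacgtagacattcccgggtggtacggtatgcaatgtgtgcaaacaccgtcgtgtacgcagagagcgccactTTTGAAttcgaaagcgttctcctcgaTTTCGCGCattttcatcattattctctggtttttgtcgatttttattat
orc-2: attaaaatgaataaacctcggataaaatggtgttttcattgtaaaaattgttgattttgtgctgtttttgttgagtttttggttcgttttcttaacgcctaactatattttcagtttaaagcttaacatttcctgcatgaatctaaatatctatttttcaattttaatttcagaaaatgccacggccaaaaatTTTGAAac
In these windows mcm-3, mcm-5, mcm-6, mcm-7 and orc-1 hold an E2F-like word, and mcm-2 and orc-2 hold only the CHR-like word. Of the 3 genes not shown, mcm-4 and cdt-1 hold an E2F-like word at the summit and cdc-6 does not.

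E2F-like words lay at 7 of the 9 marked licensing summits, in mcm-3, mcm-4, mcm-5, mcm-6, mcm-7, orc-1 and cdt-1. Such a word lay in 6.55% of the 201 bp windows at all final summits. TTTCGCGC accounted for 5 of the 7 genes, mcm-3, mcm-4, mcm-6, mcm-7 and orc-1, beside 2.07% of all final summits. TTTGGCGC lay at mcm-5, beside 1.2% of all final summits, and TTTCCCGC at cdt-1, beside 1.77%. TTTCCGCC and GGCGGGAA matched at none of the 9 summits, beside 0.959% and 1.36% of all final summits. The words overlap in part: the reverse complement of GGCGGGAA shares TTCCCGC with TTTCCCGC, and TTTCGCGC and TTTGGCGC both end in GCGC. In the promoter, taken as 250 bp before to 50 bp after the 5′ end, the same 7 genes of the 10 held an E2F-like word. This compares with 5.28% of the promoters of all coding genes and 8.26% of those of marked coding genes. The centres of the words at the summits lay on the side of the gene in 6 of the 7, at 23 to 56 bp from the summit, and upstream of it in mcm-6, at -27 bp. The side was not counted over all final summits.

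**Figure D4:**
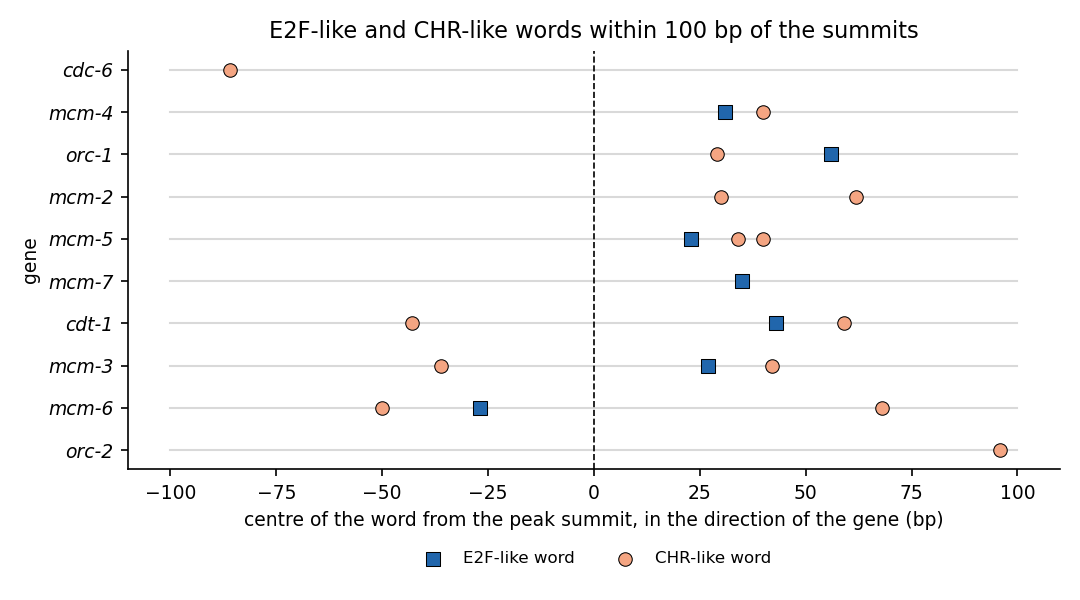
Centres of E2F-like words (squares) and of the CHR-like word TTTGAA (circles) from the peak summit, in the direction of the gene (bp), for the 10 licensing genes in order of signal. E2F-like words lie 23 to 56 bp from the summit on the gene side in 6 genes and at -27 bp in mcm-6, and cdc-6, mcm-2 and orc-2 have none.

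TTTGAA lay at 8 of the 9 marked summits, all but mcm-7, beside 31.0% of all final summits. In promoters it is a frequent word, held by 9 of the 10 licensing genes, 62.5% of all coding promoters and 58.9% of marked ones. Set together, an E2F-like word and TTTGAA lay at most 20 bases apart at 6 of the 9 summits, beside 1.5% of all final summits (100 of 6675). With at most 10 bases apart it was 4 of the 9, beside 1.23%. These shares of all final summits are low in part because an E2F-like word is itself rare there. Of the 437 final summits with an E2F-like word, 100 had the pair at most 20 bases apart, beside 6 of the 7 licensing summits with that word. This pairing, with its limits, was looked at after the matches had been seen, and the limit of 20 bases equals the widest gap counted, at orc-1. The bases between them numbered 2 at mcm-4, 4 at mcm-5, 8 at mcm-3, 9 at cdt-1, 16 at mcm-6 and 20 at orc-1. The word TTTCAG, which matches the worm splice acceptor, was also counted since SNU-23 is a spliceosomal protein by name. It lay in the promoter windows of 8 of the 10 licensing genes, 51.7% of all coding promoters and 54.8% of marked ones. In 7 of the 10 genes it ended at the base before the annotated 5′ end, beside 12.3% of all coding genes and 22.4% of marked ones, a count also added after seeing the matches. At the summits it lay at 3 of the 9 marked genes, beside 14.5% of all final summits. GC content of the summit windows had a median of 41.8% at the 9 marked genes and 42.3% over all final summits, with cdc-6 lowest among the marked at 30.9% and cdt-1 highest at 47.3%. The orc-2 window held 27.4% GC. Each match is a description of letters, and whether a factor binds there was not tested.

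Genes that act with the licensing factors or after them were looked up in 4 lists by role. Of 61 symbols, 54 were found in the annotation, and 37 of these (68.5%) were marked, beside 90% of the licensing genes and 16.8% of all coding genes. Of the 37 summits, 34 lay upstream of the 5′ end, and 19 had another coding 5′ end within 500 bp. Only some of those 19 are named as shared below. Among other genes of loading and its control, 7 of 10 were marked, with a median signal of 211. The strongest were mcm-10, whose product works in helicase activation, at 534, the origin recognition subunit gene orc-5 at 491 and the ubiquitin ligase scaffold gene cul-4 at 359. rbx-1, cdt-2, orc-3 and ddb-1 followed with 211, 176, 126 and 94.4. By the 5′ end rule the origin recognition subunit genes differed: orc-1, orc-5 and orc-3 were marked and orc-2 was not. orc-4 missed the list with a candidate of signal 69.7, just under the lowest final signal of 71.7. Both unmarked genes begin close behind a same-strand gene that has a final peak. orc-2 begins 134 bp past copz-1 (signal 503) and orc-4 111 bp past orc-1 (signal 258). Whether those upstream peaks also concern orc-2 and orc-4 was not tested. gmn-1, which encodes the CDT-1 inhibitor geminin, had no pooled candidate within 500 bp, and cand-1 was not marked either.

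Of the genes of helicase activation, 6 of 9 were marked, with a median of 190.0. ctf-4 had 963, in a peak shared with the elongation factor gene eef-1G. The GINS complex genes psf-1, psf-2 and psf-3 had 278, 179 and 149, while the GINS gene sld-5 had no candidate. The peaks of psf-1 and psf-2 were shared with R53.4 and zipt-1. sld-2 had 201 and the kinase gene cdc-7 had 133. At the replication fork 16 of 23 genes were marked, with a median of 174. The sliding clamp gene pcn-1 had 723, at -260 bp from its 5′ end, and the DNA polymerase genes pola-1 and pole-1 had 346 and 317. The peak of pola-1 was shared with Y47D3A.1, and pole-2 had no pooled candidate within 500 bp. Clamp loader genes spread widely: rfc-4 had 1253 in a peak shared with eef-1A.1, against 151 for rfc-2 and 121 for rfc-1. The gene rfc-3 was not marked, with a pooled candidate of signal 17.5. The other marked fork genes were top-2 (769), pri-2 (566), rnh-2 (240.4), rnr-1 (175), dna-2 (173), pri-1 (138), div-1 (114), crn-1 (109), lig-1 (90.5) and rpa-1 (88.8). For lig-1 the candidates of replicate 1 held no summit within 500 bp of the 5′ end.

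Of the checkpoint genes, 8 of 12 were marked, with the highest median of the 4 lists at 486. clsp-1, tim-1, hpr-9 and hpr-17 had 900.0, 862, 581 and 527, each in a peak within 500 bp of another coding 5′ end. mrt-2 had 445, chk-1 281, atm-1 262 and tipn-1 228. Of these, the peaks of atm-1 and tipn-1 were shared too, with F56C11.3 and ubxn-1. Counting a peak only for the coding gene with the nearest 5′ end, 4 of the 12 checkpoint genes were marked. By that count 7 of the 10 licensing genes and 29 of the 54 other replication genes were marked, beside 13.7% of all coding genes.

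**Figure D5:**
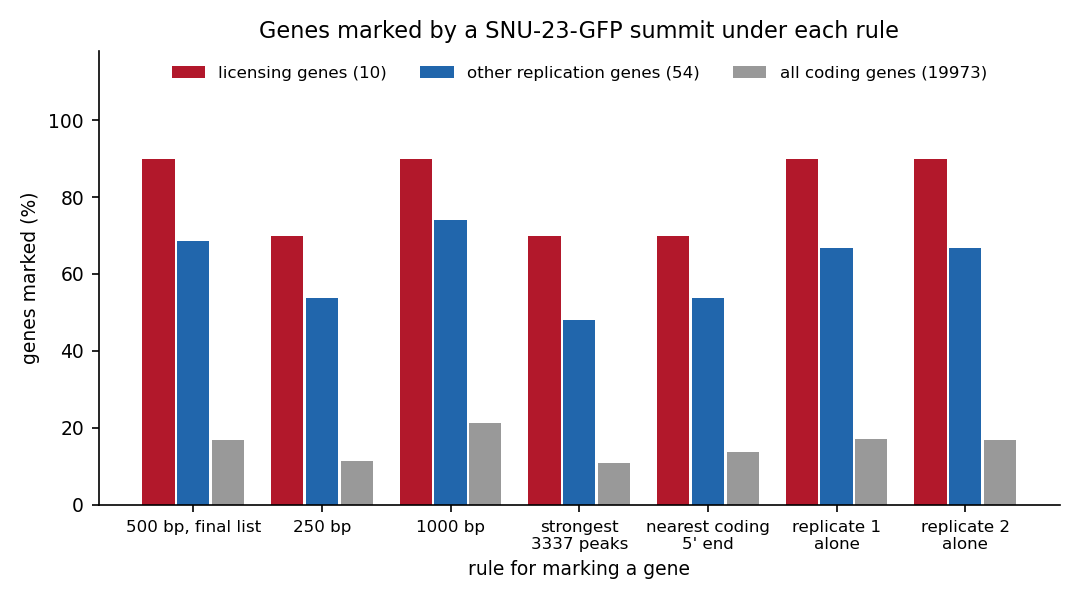
Percent of genes marked under each rule, for the licensing genes, the 54 other replication genes and all coding genes. With 500 bp and the final list the shares are 90%, 68.5% and 16.8%, and with the nearest coding 5′ end only they are 70%, 53.7% and 13.7%.

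For the strongest licensing gene, the marked coding genes most alike in signal over the 2 replicates were sought by distance on the log2 scale. After acin-1, which has the same peak as cdc-6, these were sup-35 with 362 in replicate 1 and 352 in replicate 2, and cup-14 with 351 and 326. cup-14 was tied with ndub-8, which shares its peak. Likeness over 2 libraries is a description of level only.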

How the data were processed

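The measurements are ChIP-seq peak lists of 2 biological replicates of 1 group. Per the deposited file descriptions, the authors called candidates on each replicate and on the pooled replicates against a control alignment, and thresholded the final list by the irreproducible discovery rate (IDR). Which caller, aligner and IDR version they used is not given in the sources used here. The authors' lists give per peak a signal over the control, a deposited −log10 q-value and a summit. All 6675 final peaks had the highest −log10 q-value of the pooled list, 4.38, so it ranks nothing among them. Lists on ce11 were used, and of the lists on ce10 only the number of final peaks, 8993. Read depth is unknown, and no interval was computed.

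Genes were taken from Ensembl release 115 on WBcel235, which has the chromosomes of ce11, and matched by symbol. Offsets are from the summit to the annotated 5′ end on the gene strand. A final peak was matched to the strongest peak of a replicate that holds its summit. Motifs were matched exactly on both strands. All 10 licensing genes are named, with the marked genes of the 4 lists and some unmarked ones. Also named are the nearest coding gene to either side, genes that share a licensing gene's peak and the 3 genes most alike to the strongest one. At mcm-6 the search gave srxa-10, inside the gene, for both sides, so no gene flanking it upstream is named. The members and lists were chosen with earlier results of these data known. The counting was tested on simulated data. Python 3.11.15, pandas 2.3.3, numpy 2.4.6 and matplotlib 3.10.9 were used. Alternatives were other windows, lists, replicates, gene assignments and motif windows. Control reads and alignments were not analysed here.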

Additional observations from a re-analysis of the deposited data

How the results depend on the processing

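Of 86 alternative values, 81 stayed within the tolerance (1.5 times for a count, 1 SD for an offset or log2 ratio) and 5 moved beyond it. For log2 ratios the SD was that of the 9 genes (0.201) for their median and that of all matched final peaks (0.39) for single genes. Of the 86, 36 were single-gene values, and 0 of these moved. Dividing by the list median shifts every ratio by 0.204, so single-gene ratios could not move there. Words without a match in either window also counted as within the tolerance. A change of sign was not labelled apart, so it can fall under either outcome. The count of marked licensing genes stayed at 9 with a 1000 bp window, without replicate 1, without replicate 2, with any base of the peak or any transcript, and with as many pooled candidates as there are final peaks on ce10 (chosen after seeing the data). It was 7 with a 250 bp window (mcm-2 and cdc-6 lost), 7 with the strongest 3337 final peaks (mcm-3 and mcm-6 lost), 7 with the nearest 5′ end only (mcm-3 and cdc-6 lost), and 10 with every pooled candidate. All coding genes marked numbered 3355 (16.8%) in the report. They numbered 2268 (11.4%) with a 250 bp window, 4279 (21.4%) with a 1000 bp window, 2151 (10.8%) with the strongest 3337 peaks, 6599 (33.0%) with every pooled candidate, and 3387 to 3412 when a replicate was left out. With the peak counted only for the nearest 5′ end of any gene the share was 12.1%, and for the nearest coding 5′ end 13.7%. Other replication genes marked numbered 26 to 44 over the settings, and 36 with either replicate left out. Fork genes fell to 9 of 23 among the strongest 3337 peaks, and numbered 14 with replicate 1 alone and 16 with replicate 2 alone. The median log2 ratio of replicates at the licensing genes changed sign, from 0.06 to -0.15, with signals divided by the list median, because replicate 2 has the higher median by a ratio of 1.15. The ratio also changed sign at mcm-2, from 0.06 to -0.15, and at mcm-3, from 0.17 to -0.04, both within the wider single-gene tolerance of 0.39. The median is the value at mcm-2, and its same change counted as moved under the tolerance of 0.201. At the summits in place of promoters, TTTCCCGC lay at 1 licensing gene and TTTCAG at 4 of the 10. Median offsets were -179 bp, and -172 to -164 bp in the single replicates. No paired analysis was possible because there is only 1 group. Read depth is unknown, so peaks missed for want of reads cannot be told apart from absent binding.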
